A study of Mus musculus with 8 samples.

Results

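The genes described here are 47 genes of S phase, the part of the cell cycle in which the genome is copied. They were taken as the rows of the deposited count matrices that carry the listed symbols, and each of the 47 symbols matched 1 of the 27998 rows. The values come from droplet single-cell RNA-seq of the cortex of CD1 mouse embryos at E16.5, where E stands for embryonic day. In the ShhN group, a plasmid carrying ShhN, the signalling fragment of sonic hedgehog, had been introduced by in utero electroporation at E13.5. Electroporation delivers plasmid to cells that line the ventricle, so only part of the cortex takes it up. The WT group consisted of wild type littermates, and the labels do not say whether these had received another plasmid. They do not name the promoter of the plasmid either. Both groups are CD1 cortex of the same age, with 4 samples in each group. The 4 samples of a group were deposited together in 1 matrix with no mark of the sample on a cell, so each group is 1 library and no difference between them has a replicate check.

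DNA replication starts at origins that are prepared in G1, when Cdc6 and Cdt1 help to load the MCM helicase onto DNA. In S phase the helicase is activated by Cdc45 and the GINS complex, the clamp loader RFC places the sliding clamp PCNA on primed DNA, and polymerases copy both strands while new nucleotides and new histones are supplied. Many of these genes are switched on together at the G1 to S boundary by E2F transcription factors, which act after cyclin-dependent kinases have released them from the retinoblastoma protein. In the embryonic cortex the cells that replicate are radial glia, the stem cells at the ventricle, and intermediate progenitors, which express Eomes and divide to give excitatory neurons, whereas neurons do not replicate. Sonic hedgehog is a mitogen for several kinds of neural progenitor, and Ptch1 and Gli1 are genes that its pathway induces.

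The ShhN library held 69470062 unique molecular identifiers (UMIs, each a counted RNA molecule) and the WT library 63760199. After removal of doublets 8076 ShhN cells and 6920 WT cells were kept, with a median of 6684 UMIs in ShhN cells and 6278 UMIs in WT cells, and 73 barcodes occurred among the cells of both libraries. Levels are given as CPM, the UMIs of a gene scaled to the same total for every library or cell class, with 95% intervals in square brackets. Counting error is all that these intervals hold, so embryos and libraries can differ by more. Shh had 5900 UMIs in ShhN cells, or 103 CPM, and 0 UMIs in WT cells, which allows up to 0.0646 CPM. Ptch1 stood at 33.7 CPM in ShhN cells and 5.36 CPM in WT cells. Cell classes were rebuilt here from clusters made without the 47 genes and without other listed cycle genes, and were named from marker lists. The largest classes included 2657 ShhN and 2239 WT upper layer neuron-like cells and 1054 ShhN and 916 WT deep layer neuron-like cells.

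Summed over all cells, the 47 genes made up 1922 CPM [1911, 1934] of the ShhN library and 1054 CPM [1045, 1063] of the WT library, a 1.82-fold difference [1.80, 1.84]. All 47 had a ratio above 1, against 37.0% of the 13023 genes with at least 50 UMIs. A size rule called a gene higher or lower where its log2 ratio of ShhN over WT reached 1 or -1 and the whole interval lay at least 0.5 away from 0. By this rule 25 of the 47 genes were higher in the ShhN library and 0 were lower. Of all genes tested, 2.85% were called higher and 1.84% lower. The median log2 ratio was 1.04 for the 47 genes and -0.08 for all genes tested. In a tissue summed in this way, more cells that replicate and more RNA per replicating cell cannot be told apart.

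Genes for licensing origins and for the MCM helicase were higher as a group, at 289 CPM in ShhN cells and 131 CPM in WT cells, a log2 ratio of 1.15 [1.10, 1.19]. Of its 9 genes, 7 were called higher. Mcm5 (chromosome 8, 75109569 to 75128439 on GRCm38), a helicase subunit, had 1699 UMIs or 29.6 CPM in ShhN cells and 482 UMIs or 10.4 CPM in WT cells, a log2 ratio of 1.51 [1.37, 1.66]. Mcm3, another subunit, had a log2 ratio of 1.65 [1.48, 1.82]. Mcm2 had 1.33 and Mcm6 1.16. The helicase loaders Cdc6 and Cdt1 had log2 ratios of 2.29 [1.77, 2.84] and 1.80 [1.53, 2.08]. Gmnn (chromosome 13, 24751845 to 24761923), which encodes geminin, the inhibitor that keeps Cdt1 from loading helicase a second time, was at 32.1 CPM in ShhN cells and 8.01 CPM in WT cells, with a log2 ratio between 1.84 and 2.17. Mcm4 narrowly missed the rule at 18.9 CPM in ShhN cells and 9.48 CPM in WT cells, and Mcm7 had a log2 ratio of 0.64 [0.57, 0.70].

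Among the 5 genes of helicase activation, 3 were called higher. Mcm10, which is needed to start unwinding, had 278 UMIs in ShhN cells and 40 UMIs in WT cells, a log2 ratio of 2.49 [2.01, 3.01] and the highest of the 47. Cdc45, a part of the active helicase, had a log2 ratio of 1.94 [1.69, 2.19]. The GINS subunit Gins3 was called higher at 1.12, and Gins2 and Gins1 were not, at 0.96 and 0.51. The sliding clamp and its loader formed the group with the smallest ratio, 328 CPM in ShhN cells and 227 CPM in WT cells, a log2 ratio of 0.53 [0.50, 0.57], and none of its 6 genes was called. Pcna was at 84.6 CPM in ShhN cells and 46.4 CPM in WT cells, a log2 ratio of 0.87 [0.79, 0.94]. The loader genes Rfc1, Rfc2 and Rfc3 had log2 ratios of 0.33, 0.33 and 0.37.

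Of 5 polymerase and primase genes, Pole and Pold1, which encode the catalytic subunits of the leading and lagging strand polymerases, were called higher at log2 ratios of 1.63 and 1.02. Pola1, Prim1 and Prim2, which make the primers, had 0.86, 0.85 and 0.38. In nucleotide supply, Rrm2 (chromosome 12, 24708241 to 24714146), the cycle-regulated subunit of ribonucleotide reductase, had 5040 UMIs or 87.9 CPM in ShhN cells and 1107 UMIs or 23.8 CPM in WT cells, a log2 ratio of 1.88 [1.79, 1.98]. Its partner Rrm1 had a log2 ratio of 0.86 [0.77, 0.95]. Tyms, which makes thymidylate, and Ung, which removes uracil from DNA, were called higher at 1.24 and 1.20, and Dut, which hydrolyses dUTP, was not, at 0.96 [0.91, 1.01]. Of the genes for joining and trimming new DNA, Lig1 (DNA ligase 1) and the nuclease gene Exo1 were called higher at 1.23 and 2.48 and the flap nuclease gene Fen1 was not, at 0.83.

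Chromatin genes split in a like manner. Uhrf1, which reads half-methylated DNA behind the fork, and the remodeller Hells were called higher at log2 ratios of 1.93 [1.76, 2.11] and 1.68 [1.53, 1.82], as was Chaf1a, a histone chaperone subunit, at 1.04. Its partner Chaf1b had 0.89. Nasp, a histone chaperone, and Slbp, which binds histone mRNA, were at 0.54 [0.50, 0.58] and 0.52 [0.45, 0.59]. Clspn (chromosome 4, 126556935 to 126593903), which encodes the fork and checkpoint protein claspin, had 1135 UMIs or 19.8 CPM in ShhN cells and 170 UMIs or 3.66 CPM in WT cells, a log2 ratio of 2.43 [2.20, 2.68]. Tipin, Dtl and Usp1, of the same group, were not called, at 0.86, 0.75 and 0.49. All 4 control genes were called higher, the cyclin genes Ccne1 at 1.33 and Ccne2 at 1.48, the activator E2f1 at 1.09 and the repressor E2f8 at 2.04.

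**Figure D1:**
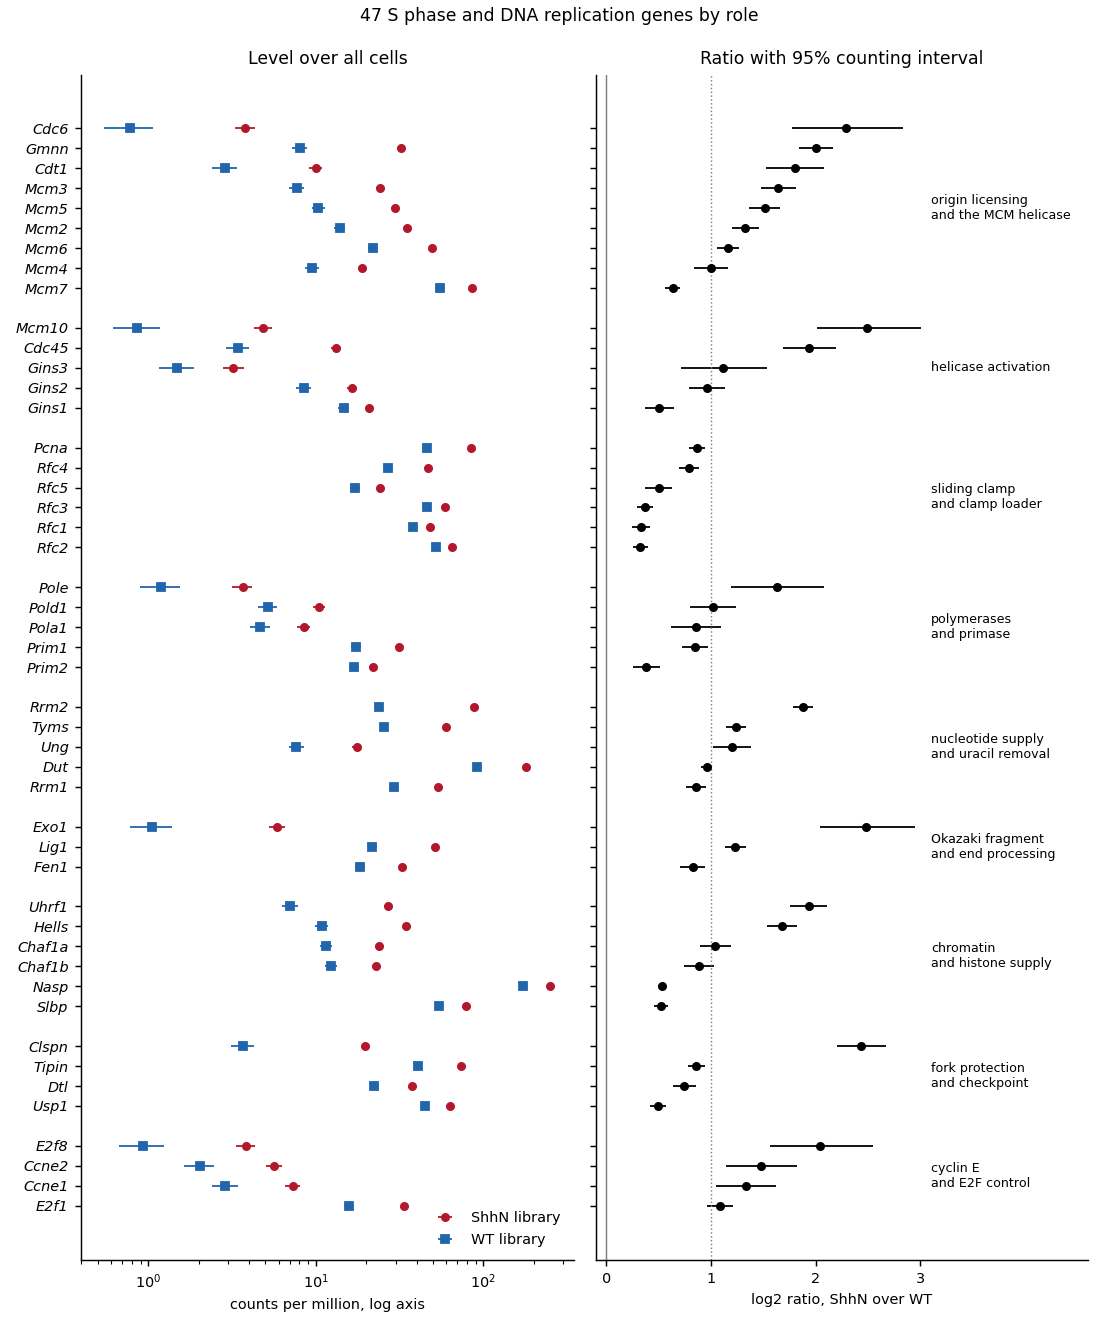
Level of each of the 47 genes over all cells in CPM on a log axis (left, circles ShhN, squares WT) and its log2 ratio of ShhN over WT (right), by role, with 95% counting intervals; the dotted line marks a log2 ratio of 1. Every ratio lies above 0, from 0.33 for Rfc2 to 2.49 for Mcm10, and the sliding clamp and clamp loader genes all lie below the dotted line.

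The start regions of these genes were searched for letters that E2F factors are known to prefer. RefSeq windows of 300 bases (250 before and 50 after the start, GRCm38.p6) were given for 36 of the 47 genes, 4 of which had more than 1. An E2F-like octamer (TTTGGCGC, TTTCCCGC, TTTCGCGC or TTTGCCGC, either strand) was present in 15 of their 41 windows (36.6%), against 2.26% of 32851 windows of all genes. A CCAAT box (either strand), which NF-Y is known to bind, was in 58.5% of the windows of these genes and 37.4% of all windows. The 15 genes with an octamer in at least 1 window had a median log2 ratio over all cells of 1.23 (range 0.37 to 2.43), and the 21 without had 0.96 (range 0.33 to 2.49), so the ranges overlapped almost fully. Among the 21 without were genes called higher, namely Mcm2, Mcm10, Rrm2, Tyms, Ung, Cdc45, Chaf1a, Ccne1, E2f1 and E2f8. The lines show the 200 bases before the start for 4 genes called higher and for 2 genes with small ratios, 5′ to 3′ on the gene's strand. All 4 genes called higher that are shown hold an octamer, so they do not stand for all genes called higher. The same letters occur in both kinds of gene. Capitals mark E2F-like octamers and CCAAT boxes on either strand.
Mcm5 (chr8:75109309-75109508, plus strand): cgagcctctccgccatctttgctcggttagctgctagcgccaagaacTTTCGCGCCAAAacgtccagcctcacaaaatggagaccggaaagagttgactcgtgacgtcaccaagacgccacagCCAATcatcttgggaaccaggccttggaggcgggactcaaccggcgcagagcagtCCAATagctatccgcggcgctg
Mcm6 (chr1:128359706-128359905, minus strand): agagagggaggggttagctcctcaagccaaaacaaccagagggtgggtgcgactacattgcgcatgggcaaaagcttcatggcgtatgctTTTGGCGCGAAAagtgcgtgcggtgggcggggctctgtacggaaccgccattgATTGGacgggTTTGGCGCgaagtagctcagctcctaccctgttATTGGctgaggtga
Hells (chr19:38930790-38930989, plus strand): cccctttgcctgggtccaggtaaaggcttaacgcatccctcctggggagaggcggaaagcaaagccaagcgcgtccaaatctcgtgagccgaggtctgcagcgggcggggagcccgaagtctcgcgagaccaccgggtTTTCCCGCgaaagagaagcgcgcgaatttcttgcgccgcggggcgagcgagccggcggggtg
Cdc6 (chr11:98907951-98908150, plus strand): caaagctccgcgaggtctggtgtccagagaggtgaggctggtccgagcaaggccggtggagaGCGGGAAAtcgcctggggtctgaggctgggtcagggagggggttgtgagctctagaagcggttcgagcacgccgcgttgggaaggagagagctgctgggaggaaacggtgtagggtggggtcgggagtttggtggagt
Rfc3 (chr5:151651209-151651408, minus strand): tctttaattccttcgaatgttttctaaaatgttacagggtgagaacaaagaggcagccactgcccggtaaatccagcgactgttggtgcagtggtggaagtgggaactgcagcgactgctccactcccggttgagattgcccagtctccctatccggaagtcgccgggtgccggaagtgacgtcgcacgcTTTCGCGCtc
Nasp (chr4:116627952-116628151, minus strand): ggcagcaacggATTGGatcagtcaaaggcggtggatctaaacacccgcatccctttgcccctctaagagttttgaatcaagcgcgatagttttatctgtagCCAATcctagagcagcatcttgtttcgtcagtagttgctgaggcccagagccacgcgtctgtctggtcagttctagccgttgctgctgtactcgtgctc

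Mcm5 carries octamers on both strands that overlap, TTTCGCGC from 153 to 146 bases before the start and the reverse complement of TTTGGCGC from 149 to 142 bases before it. In Mcm6 such an overlapping pair spans 110 to 99 bases before the start, and a further TTTGGCGC lies from 47 to 40. Hells and Cdc6 hold 1 octamer each, and Rfc3, with a log2 ratio of 0.37, holds TTTCGCGC in the stretch shown, from 10 to 3 bases before the start. In Nasp the stretch holds CCAAT boxes and no octamer. A match is a run of letters and not a measured binding site, and no match says only that these letters are not in the window.

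The size of the difference followed how strongly a gene was restricted to dividing cells within each library. Mki67 and Top2a, which mark dividing cells and are not among the 47, were used to split cells that had each been thinned to 4500 UMIs. Inside the ShhN library, the 47 genes were higher in cells with a Mki67 or Top2a UMI than in cells without by log2 ratios of 1.21 (Rfc2) to 5.58 (E2f8), with a median of 2.37. Inside the WT library the log2 ratios ran from 0.87 (Rfc2) to 6.67 (E2f8), with a median of 2.35. The WT value of E2f8 rests on 15 UMIs in cells with and 3 UMIs in cells without, with an interval of 4.85 to 9.10. Across the 47 genes this restriction and the log2 ratio of ShhN over WT over all cells had a Spearman rho of 0.86 with the ShhN restriction and 0.93 with the WT restriction. This is a description across genes, which are not independent replicates, and both measures come from the same 2 libraries. The 15 least restricted genes by the ShhN library had a median log2 ratio over all cells of 0.64, and the 15 most restricted had 1.93. At equal depth 1056 of 7019 ShhN cells and 246 of 5257 WT cells had a Mki67 or Top2a UMI. With such shares, more restricted genes would have larger ratios over all cells even at equal levels within each kind of cell. The correlation and these medians therefore cannot tell a difference in share from a difference in level.

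**Figure D2:**
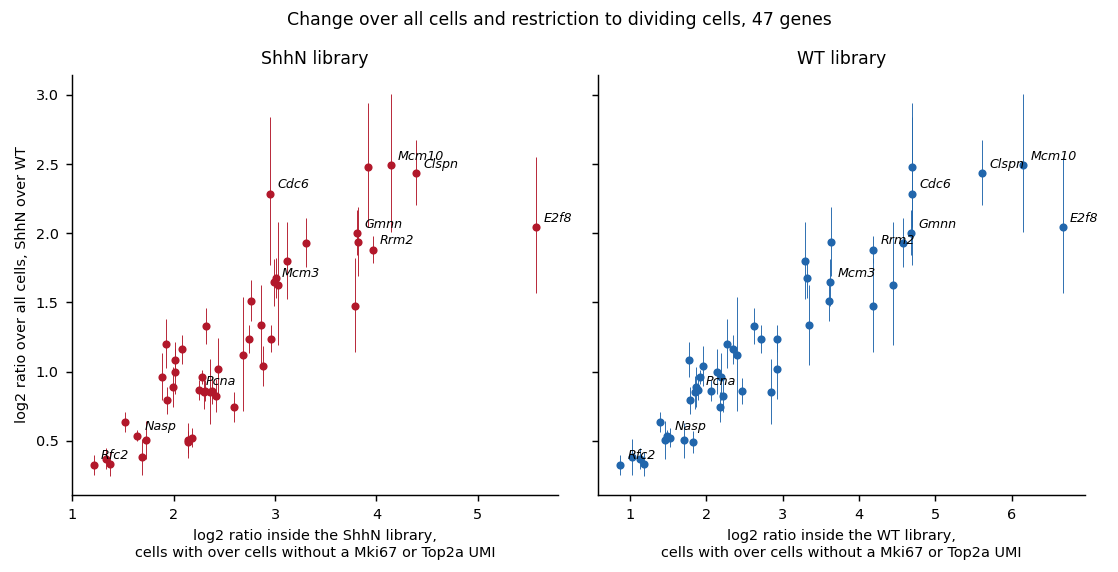
Each point is 1 of the 47 genes; the x axis is the log2 ratio of its level in cells with over cells without a Mki67 or Top2a UMI inside the ShhN library (left) or the WT library (right), and the y axis is its log2 ratio of ShhN over WT over all cells with the 95% counting interval. Rfc2 and Nasp lie at the low end of both axes, and Clspn, Mcm10 and E2f8 at the high end of the x axis.

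The least restricted genes were also seen in neurons. At equal depth a Nasp UMI was found in 34.3% of ShhN and 35.9% of WT deep layer neuron-like cells, and in 56.0% of all ShhN and 50.2% of all WT cells. Rfc2 was found in 19.8% of ShhN and 20.4% of WT deep layer neuron-like cells. For Clspn the share was 5.70% of all ShhN cells and 1.14% of all WT cells, and in deep layer neuron-like cells 0.21% in ShhN and 0 in WT, which allows up to 0.497%. For Gmnn it was 8.96% of all ShhN cells and 2.51% of all WT cells, and in deep layer neuron-like cells 0.64% (ShhN) and 1.08% (WT). Free RNA, measured in barcodes with 1 to 50 UMIs, held the 47 genes at 1874 CPM in the ShhN library and 987 CPM in the WT library. Its part in the shares of cells was not tested. Deep layer neuron-like cells had a summed level of 661 CPM [644, 679] in the ShhN library and 683 CPM [664, 703] in the WT library.

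In 4 named neuron classes the summed level of the 47 genes differed little, with ratios of ShhN over WT between 0.968 (deep layer) and 1.03 (migrating). Upper layer neuron-like cells had 832 CPM [819, 844] in ShhN and 847 CPM [833, 861] in WT, and GABAergic interneuron-like cells 831 CPM [779, 884] in ShhN and 847 CPM [814, 881] in WT. Migrating neuron-like cells had 1104 CPM [1084, 1125] in ShhN and 1069 CPM [1044, 1095] in WT. Their cluster 5 had Eomes among its leading genes. Smaller groups lay further apart. Cajal-Retzius-like cells, of which there were 30 in ShhN and 69 in WT, had 779 CPM [682, 886] in ShhN and 1007 CPM [933, 1085] in WT. The unnamed cluster 14, led by Nefl and Nefm (56 ShhN and 282 WT cells), had 717 CPM [640, 801] in ShhN and 820 CPM [785, 856] in WT. None of 31 genes measured was called higher in deep layer neuron-like cells (0.0716% of all genes tested were) and none of 36 in migrating neuron-like cells (0.471% of all genes). In upper layer neuron-like cells 2 of 38 were called higher, against 0.464% of all genes. These were Gmnn, with 78 UMIs in ShhN and 27 UMIs in WT cells, and Uhrf1, with 56 UMIs in ShhN and 15 UMIs in WT cells. Free RNA held Gmnn at 21.8 CPM in the ShhN library and 10.5 CPM in the WT library, and Uhrf1 at 21.8 CPM in ShhN and 5.70 CPM in WT, and the part of free RNA in these 2 differences was not tested.

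Cluster 6 held dividing cells of both libraries, 856 ShhN cells and 133 WT cells, but not all of them. At equal depth it held 616 of the 1056 ShhN cells with a Mki67 or Top2a UMI. For WT it held 84 of 246 such cells, so most of these lay outside cluster 6. Such a UMI does not always mark a dividing cell. It was also found in 60 ShhN and 27 WT upper layer neuron-like cells and in 29 ShhN and 9 WT deep layer neuron-like cells. Cluster 6 was led by Top2a, Nusap1 and Cdk1 even though listed cycle genes had been left out of the clustering. Of 6 markers of glial or olfactory bulb intermediate progenitors 5 were up in it, but 0 were among its leading genes. It therefore has no cell type name, and its size is not read as a result. It held 388 ShhN and 80 WT cells with at least 2 Eomes UMIs, and 224 ShhN and 17 WT cells of the radial glia gate described below. Its mixture of cells thus differed between the libraries. In these cells the 47 genes reached 7020 CPM [6959, 7082] in ShhN and 6513 CPM [6363, 6666] in WT, a 1.08-fold difference [1.05, 1.11]. All 47 were measured there and none was called higher, against 0.618% of all genes. Of the 47 ratios 38 lay above 1, against 41.4% of all genes. The median log2 ratio was 0.14 for the 47 genes and -0.06 for all genes. Cells of this cluster share a dividing state, so near levels may follow from how the cluster formed, which was not tested. The log2 ratios ran from -0.26 for Rfc5 to 0.48 for Cdc45. Genes with high ratios over all cells had small ones here. Clspn was at 118 CPM in ShhN and 99.9 CPM in WT cells of the cluster, Mcm10 at 27.1 CPM in ShhN and 22.9 CPM in WT, and Rrm2 at 484 CPM in ShhN and 445 CPM in WT, with log2 ratios of 0.23 [-0.05, 0.54], 0.24 [-0.36, 0.91] and 0.12 [-0.02, 0.26]. Pcna was at 306 CPM in ShhN and 271 CPM in WT.

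**Figure D3:**
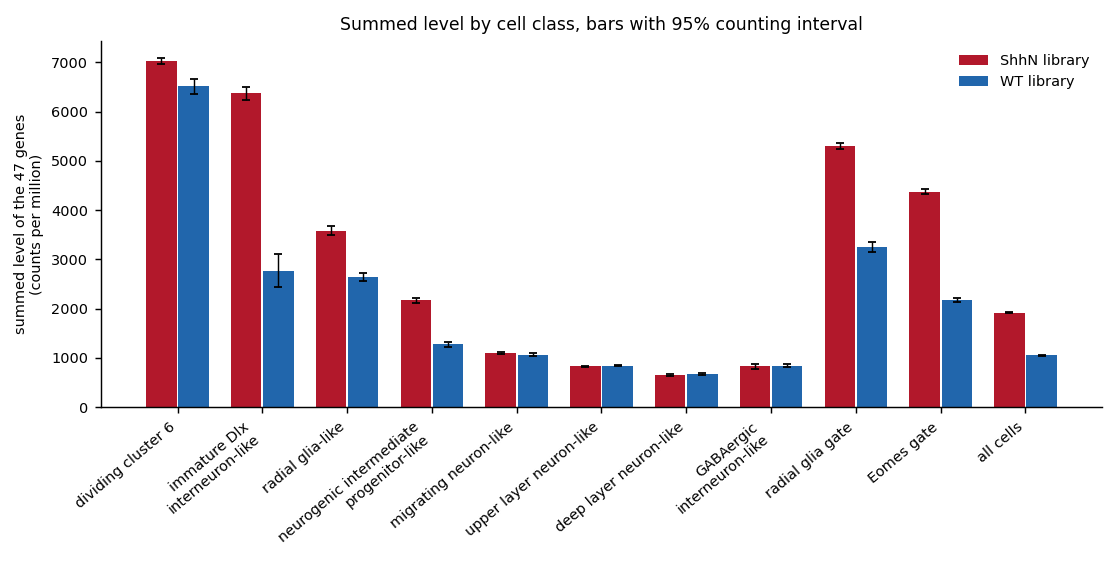
Summed level of the 47 genes in CPM by cell class, ShhN bars left of WT bars, with 95% counting intervals. The bars are nearly level in dividing cluster 6 and in the 4 neuron classes and differ in the progenitor classes and gates; the immature Dlx interneuron-like WT bar rests on 17 cells.

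Cells were also taken without clusters, by gates on UMIs of progenitor markers. The Eomes gate took cells with at least 2 Eomes UMIs, which were 987 ShhN cells and 691 WT cells. The radial glia gate took cells with no Eomes UMI and at least 4 UMIs from at least 3 of Slc1a3, Pax6, Sox2, Hes5, Sox9, Mfge8 and Ttyh1, which were 551 ShhN cells and 159 WT cells. Of Eomes gate cells, 39.3% (ShhN) and 11.6% (WT) lay in dividing cluster 6, 14.6% (ShhN) and 40.7% (WT) in neurogenic cluster 11, 13.6% (ShhN) and 2.17% (WT) in neurogenic cluster 13, and 27.7% (ShhN) and 37.3% (WT) in migrating neuron-like clusters. Of radial glia gate cells, 40.7% (ShhN) and 10.7% (WT) lay in cluster 6, and 18.1% (ShhN) and 3.14% (WT) in the cluster of immature Dlx interneuron-like cells, while 36.3% (ShhN) and 72.3% (WT) lay in the radial glia-like cluster. Each gate thus holds unlike mixtures of cells in the 2 libraries, so its values are not those of 1 kind of progenitor.

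In Eomes gate cells the 47 genes stood at 4373 CPM [4325, 4421] in ShhN and 2181 CPM [2139, 2223] in WT, a 2.01-fold difference [1.96, 2.05]. Of the 47, 29 were called higher and 0 lower, where 2.64% of all genes were called higher and 2.07% lower, and the median log2 ratio was 1.16 for the 47 and -0.10 for all genes. Cdc6, E2f8 and Cdc45 had the highest log2 ratios, 1.83 [1.06, 2.70], 1.80 [1.02, 2.67] and 1.80 [1.39, 2.24]. Cdc45 was at 41.0 CPM in ShhN and 11.8 CPM in WT. Pola1, the catalytic subunit that extends primers, was at 18.8 CPM in ShhN and 5.88 CPM in WT, a log2 ratio of 1.68 [1.08, 2.32]. Rrm2 was at 249 CPM in ShhN and 91.8 CPM in WT, a log2 ratio of 1.44 [1.29, 1.59], and Dut at 435 CPM in ShhN and 178 CPM in WT, a log2 ratio of 1.29 [1.18, 1.40]. The lowest ratios belonged to Rfc1 (0.45), Slbp (0.54) and Rfc3 (0.56), none of which was called. Eomes itself was at 601 CPM in ShhN and 664 CPM in WT cells of the gate.

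In radial glia gate cells the level was 5299 CPM [5230, 5368] in ShhN and 3244 CPM [3146, 3345] in WT, a 1.63-fold difference [1.58, 1.69]. Of the 47 genes, 6 were called higher and 0 lower, where 1.45% of all genes were called higher and 2.45% lower, and the median log2 ratio was 0.73 for the 47 and -0.03 for all genes. Clspn was at 79.8 CPM in ShhN and 25.1 CPM in WT, a log2 ratio of 1.67 [1.14, 2.24]. Rrm2 was at 334 CPM in ShhN and 119 CPM in WT, a log2 ratio of 1.49 [1.25, 1.75]. The other 4 were Exo1 (1.41), Chaf1a (1.18), E2f1 (1.11) and Dut (1.04). Mcm3 and Ung were lowest in this order, with log2 ratios of 0.02 [-0.28, 0.32] and -0.01 [-0.39, 0.38].

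**Figure D4:**
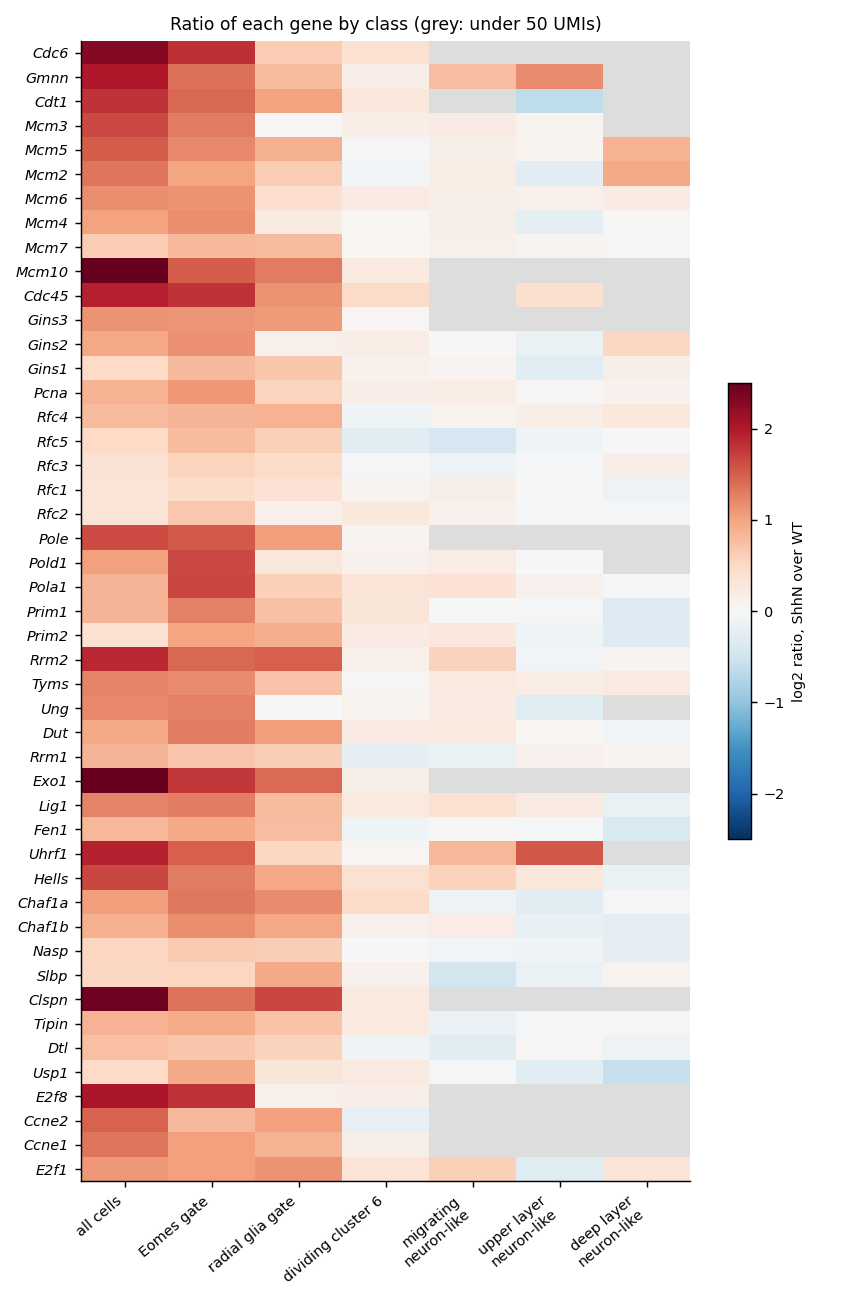
Log2 ratio of ShhN over WT for each of the 47 genes (rows, by role) over all cells, in the 2 marker gates and in 4 clusters or classes (columns); red is higher in ShhN, blue lower, and grey marks genes with under 50 UMIs over both libraries. Colour is strong over all cells and in the Eomes gate and pale in dividing cluster 6 and in neurons.

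In radial glia-like cells (250 ShhN, 173 WT) the summed level was 3581 CPM [3494, 3669] in ShhN and 2646 CPM [2561, 2732] in WT, a 1.35-fold difference [1.30, 1.41]. Of 38 measured genes 0 were called higher, against 0.535% of all genes. Their ratios lay above 1 in 33, against 49.2% of all genes, and their median log2 ratio was 0.55, against -0.006 for all genes. Eomes was at 86.4 CPM in ShhN and 174 CPM in WT there, and 29 ShhN and 42 WT cells fell in the Eomes gate. This class too was an unlike mixture in the 2 libraries. Cdt1, with 49 UMIs in ShhN and 17 UMIs in WT, had the highest log2 ratio in radial glia-like cells, 1.18 [0.36, 2.07]. Under other settings the count of genes called higher ran from 0 to 9, the highest at Leiden resolution 0.5. In neurogenic intermediate progenitor-like cells the level was 2168 CPM [2116, 2220] in ShhN and 1278 CPM [1231, 1326] in WT, and 10 of 34 measured genes were called higher, against 1.97% of all genes. They were Dut, with 814 UMIs in ShhN and 193 UMIs in WT and a log2 ratio of 1.60 [1.37, 1.83], Mcm4, Mcm5, Mcm6, Gins2, Prim1, Ung, Uhrf1, Lig1 and Chaf1b, the last 9 with log2 ratios of 1.17 (Mcm6) to 1.54 (Uhrf1). This class consists of 2 clusters that the libraries fill unequally. Cluster 11, led by Eomes, held 177 ShhN and 318 WT cells, and cluster 13, led by Rwdd3 and Tfap2d, held 352 ShhN and 27 WT cells. In cluster 11 alone the level was 1604 CPM [1530, 1680] in ShhN and 1224 CPM [1176, 1272] in WT, and 0 of 23 measured genes were called higher (0.205% of all genes were). In cluster 13 alone it was 2483 CPM [2414, 2553] in ShhN and 2060 CPM [1831, 2309] in WT. Genes are not counted there, since it held 27 WT cells and counts were made where each library had at least 100. The ratios within the clusters, 1.31 [1.23, 1.39] and 1.21 [1.07, 1.36], were below the 1.70 [1.62, 1.77] of the joined class. The count of 10 ran from 0 to 29 under other class definitions and settings. Immature Dlx interneuron-like cells had 6372 CPM [6241, 6505] in ShhN (222 cells) and 2757 CPM [2438, 3106] in WT (17 cells).

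How many cells carried the genes was measured in cells thinned to 4500 UMIs, which left out 1057 ShhN cells and 1663 WT cells that were shallower. A cell with at least 10 UMIs of the 47 genes was counted as S phase-rich. Over all cells 1231 of 7019 ShhN cells were S phase-rich (17.5% [16.7, 18.4]) and 290 of 5257 WT cells (5.52% [4.91, 6.17]), a ratio of shares of 3.18. This ratio depended on the number of UMIs asked for, at 1.24 with at least 5 and 5.23 with at least 20. Without thinning the shares were 27.3% in ShhN and 14.2% in WT. The background in deep layer neuron-like cells was 0.53% in ShhN and 0.40% in WT, with median depths before thinning of 7672 UMIs in ShhN and 7483 UMIs in WT. The median cell of both libraries had 4 such UMIs, and the 90th percentile was 22 in ShhN and 7 in WT. Of the S phase-rich cells, 59.4% (ShhN) and 35.2% (WT) lay in cluster 6, and 7.88% (ShhN) and 23.4% (WT) in the radial glia-like cluster. Neurogenic intermediate progenitor-like cells held 12.2% (ShhN) and 10.7% (WT) of them, and immature Dlx interneuron-like cells 11.7% (ShhN) and 1.72% (WT). Migrating neuron-like cells held 6.01% (ShhN) and 16.2% (WT), and upper layer neuron-like cells 1.46% (ShhN) and 7.93% (WT).

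In the Eomes gate 53.1% of ShhN cells [49.8, 56.3] and 22.3% of WT cells [19.0, 25.9] were S phase-rich, and in the radial glia gate 73.4% of ShhN cells [69.3, 77.2] and 53.3% of WT cells [44.6, 61.9]. In cluster 6 the shares were 92.2% in ShhN [90.1, 94.0] and 87.2% in WT [79.7, 92.6], with overlapping intervals. The cluster 6 shares were 70.6% (ShhN) and 59.0% (WT) with at least 20 UMIs, and 98.0% (ShhN) and 98.3% (WT) with at least 5. Radial glia-like cells had 47.5% in ShhN [40.5, 54.6] and 46.6% in WT [38.3, 55.0], so no difference in share was detectable there at 10 UMIs. With at least 20 UMIs these shares were 27.9% in ShhN and 17.1% in WT. With at least 5 UMIs they were 79.4% in ShhN and 74.0% in WT. The 90th percentile of UMIs per radial glia-like cell was 39.7 in ShhN and 26.5 in WT. Upper layer neuron-like cells had 0.72% in ShhN and 1.14% in WT. Migrating neuron-like cells had more, 5.23% in ShhN [4.13, 6.52] and 5.82% in WT [4.31, 7.67].

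**Figure D5:**
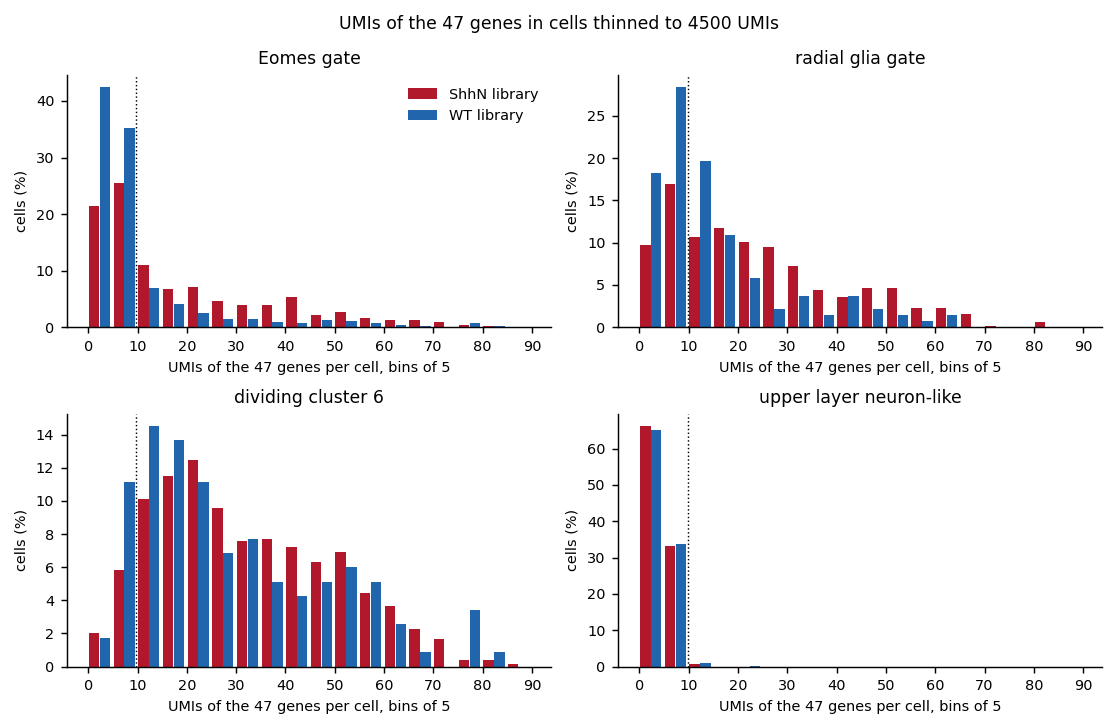
Share of cells (y axis, percent) by the number of UMIs of the 47 genes per cell after thinning to 4500 UMIs (x axis, bins of 5), ShhN bars left of WT bars, in both gates, dividing cluster 6 and upper layer neuron-like cells; the dotted line marks 10 UMIs. In the Eomes gate 53.1% of ShhN and 22.3% of WT cells lie right of the line, and in upper layer neuron-like cells 0.72% of ShhN and 1.14% of WT cells do.

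In both gates Mki67 and Top2a were found in a larger share of ShhN cells. At equal depth 40.0% of ShhN and 15.6% of WT cells of the Eomes gate had a UMI of either, and 59.7% of ShhN and 40.9% of WT cells of the radial glia gate. In radial glia-like cells the shares were 41.2% in ShhN and 36.3% in WT, and Mki67 had a log2 ratio of -0.22 [-0.59, 0.16] and Top2a 0.60 [0.35, 0.84]. In cluster 13, where Mki67 had 90 UMIs in ShhN and 11 UMIs in WT, its log2 ratio was -0.76 [-1.67, 0.29]. Deep layer neuron-like cells had shares of 3.09% in ShhN and 1.21% in WT. A cell without such a UMI may still divide, since detection is limited by depth. A cell with one need not divide. Deep layer neuron-like cells with one had 644 CPM of the 47 genes in ShhN and 519 CPM in WT. Those without had 645 CPM in ShhN and 697 CPM in WT. Migrating neuron-like cells had 1479 CPM with and 1088 CPM without in ShhN, and 1486 CPM with and 1069 CPM without in WT. Among Eomes gate cells with a UMI of either, the 47 genes stood at 6504 CPM [6381, 6629] in ShhN and 5919 CPM [5686, 6160] in WT. Among those without, the values were 2533 CPM [2470, 2596] in ShhN and 1365 CPM [1317, 1415] in WT. In the radial glia gate cells with a UMI of either had 6294 CPM [6160, 6430] in ShhN and 4282 CPM [4030, 4545] in WT, and cells without had 3804 CPM [3678, 3934] in ShhN and 2669 CPM [2504, 2843] in WT. Radial glia-like cells with a UMI of either had 4820 CPM [4601, 5047] in ShhN and 3597 CPM [3361, 3846] in WT, and those without had 2343 CPM [2215, 2475] in ShhN and 2325 CPM [2181, 2476] in WT. Cells that were S phase-rich with neither Mki67 nor Top2a made up 18.5% of ShhN and 10.5% of WT cells of the Eomes gate.

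Within the ShhN library, cells of both gates with a Ptch1 or Gli1 UMI carried more of the 47 genes. Eomes gate cells with a Ptch1 or Gli1 UMI (129 cells) stood at 6436 CPM [6231, 6646] and those without (783 cells) at 3741 CPM [3677, 3805], and 58.9% of the cells with and 36.9% of the cells without had a Mki67 or Top2a UMI. In the radial glia gate the levels were 6016 CPM [5865, 6170] with (221 cells) and 4706 CPM [4586, 4829] without (275 cells), where 69.7% with and 51.6% without had a Mki67 or Top2a UMI. In cluster 6 both kinds of cell were near each other, at 7262 CPM with and 7010 CPM without. The WT library had 7 Eomes gate cells with a Ptch1 or Gli1 UMI, and these stood at 6190 CPM [5352, 7123], against 2026 CPM [1972, 2082] in the 576 without. For Shh itself the split differed between classes of ShhN cells. Cells of the radial glia gate with a Shh UMI (19 cells) had 6386 CPM [5861, 6945] and those without 5246 CPM [5150, 5344]. Neurogenic intermediate progenitor-like cells had 3249 CPM [2895, 3633] with (21 cells, 20 of them in cluster 13) and 2119 CPM [2055, 2185] without. In the Eomes gate the levels were 4391 CPM [4060, 4741] with (33 cells) and 4112 CPM [4049, 4176] without, with overlapping intervals. In cluster 6 they were 6703 CPM [6315, 7108] with (37 cells) and 7124 CPM [7035, 7214] without. A Mki67 or Top2a UMI was found in 9.52% of neurogenic intermediate progenitor-like cells with Shh and 20.6% without. Those shares were 68.4% with and 59.3% without in the radial glia gate, and 33.3% with and 40.3% without in the Eomes gate. Upper layer neuron-like cells had 789 CPM [739, 842] with (258 cells) and 851 CPM [833, 869] without. Cells of 1 library are not replicates, and the part of the share of dividing cells in these differences was not tested.

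Other genes of replication, 58 that are not among the 47, were counted beside them. Over all cells 21 of these 58 were called higher and 0 lower, where 2.85% of all genes were called higher and 1.84% lower. Their median log2 ratio was 0.59, against 1.04 for the 47. Tk1, which salvages thymidine, was at 16.3 CPM in ShhN and 3.53 CPM in WT, a log2 ratio of 2.21 [1.97, 2.46]. Asf1b, a histone chaperone, had 2.05 and Cdca7, a partner of Hells, 1.88. Subunits of the single-strand binding complex differed among themselves, with Rpa2 called higher at 1.01 [0.89, 1.14] and Rpa1 and Rpa3 at 0.50 and 0.28. The origin recognition genes Orc6 and Orc2 had log2 ratios of 0.44 and 0.15 and were not called. Of 73 genes of G2 and M phase, 54 were called higher over all cells with a median log2 ratio of 1.55, among them Top2a at 2.33 and Mki67 at 1.75.

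In the Eomes gate 16 of 57 measured genes of the other replication list and 57 of 73 genes of the G2 and M phase list were called higher. The share over all genes there was 2.64%, and the median log2 ratios of the lists were 0.75 and 1.32. In the radial glia gate 4 of 56 and 4 of 73 were called higher, against 1.45% of all genes. Their medians there were 0.54 and 0.39, both under the 0.73 of the 47 genes. Neither list had a gene called higher in cluster 6, where 0.618% of all genes were and where their medians were 0.09 and -0.03.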

How the data were processed

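Per the labels' protocols, cortices were dissected, dissociated with papain and made into libraries with the 10x Genomics Chromium system. The deposited values are counts of UMIs per gene and barcode, unnormalized, in 1 matrix per group. The submitters' processing notes name Cell Ranger, StringTie, Seurat 3 and mm10, without their roles. How strand and reads shared between genes were treated is not stated there. A barcode was kept as a cell with at least 800 genes, at most 10% mitochondrial UMIs and a UMI total no lower than 10% of the 99th percentile among the 3000 richest barcodes. Scrublet (scanpy 1.11.5, expected rate 6%) called 241 of 8317 ShhN and 296 of 7216 WT barcodes as doublets, which were removed. Cells were clustered by the Leiden method (leidenalg 0.10.2, resolution 1) on 15 neighbours in 30 principal components of 2000 variable genes. Cycle genes, SHH targets, globins and mitochondrial genes were left out of it. A cluster was named X-like with at least 3 markers 1.5-fold above other cells and at least 1 among its 10 leading genes. These class names are not the study's own and may not match it. Endothelial and mural lists were joined after the clusters were seen.

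Class sums were scaled to CPM, with exact Poisson intervals for levels, exact conditional binomial intervals for ratios and exact Clopper-Pearson intervals for shares, all 95%. The size rule needed at least 50 UMIs over both libraries. With 1 library per group no test was run. Depth per library is given in the results. The intervals and the size rule were tested on simulated Poisson counts. These hold counting error only, so differences between embryos or libraries were not covered. All 47 genes could be named, and genes of the other lists where they passed the size rule or served as a contrast. Rpa1, Rpa3, Orc2 and Orc6 were named after their values were seen. The members and lists were chosen with earlier results of these data known. Positions are from GENCODE vM21. TMM factors came from edgeR 4.0.16.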

Additional observations from a re-analysis of the deposited data

How the results depend on the processing

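Over all cells the count of genes called higher was 24 to 28 in 9 alternatives, and no summed ratio changed direction in any alternative run. Their summed log2 ratio over all cells, 0.87, was 0.88 with at most 5% mitochondrial UMIs, 0.96 with TMM scaling, 0.82 with cells weighted equally, 0.82 with cells thinned and 0.92 without Nasp, the gene with most UMIs. In neurogenic intermediate progenitor-like cells the count of 10 became 0 with a UMI threshold of 5%, 6 with doublets kept, 0 with cycle genes kept for clustering, 25 at Leiden resolution 2, 29 in the Eomes gate and 3 with a minimum of 200 UMIs. Their summed log2 ratio, 0.76, became 0.37 with the 5% threshold, 0.66 with at most 5% mitochondrial UMIs, 0.58 with doublets, 0.31 with cycle genes, 0.96 at resolution 2, 1.004 in the gate, 0.84 with TMM and 0.85 thinned. Chosen after seeing the data, cluster 11 alone gave 0 genes and a log2 ratio of 0.39, and the neurogenic clusters with cluster 6 gave 21 genes and 0.89. At Leiden resolution 0.5 no cluster bore this name, so it has no value. In radial glia-like cells the count of 0 became 1 with doublets, 9 at resolution 0.5, 6 in the radial glia gate and 2 with no UMI minimum. Their summed log2 ratio, 0.44, became 0.28 with at most 5% mitochondrial UMIs, 0.36 with doublets, 0.64 at resolution 0.5, 0.71 in the gate, 0.33 weighted equally and 0.27 thinned. The ratio of S phase-rich shares, 3.18, was 1.24 with at least 5 UMIs per cell, 5.23 with at least 20 and 1.92 unthinned. The cause of these moves was not tested. TMM scaling added 0.14 to every log2 ratio in the Eomes gate and 0.11 in the radial glia gate, and 0.09 over all cells. Genes with few UMIs, such as Cdc6 and E2f8, have the widest intervals.

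No paired analysis was possible because each matrix pools the 4 samples of its group, and for the same reason leaving out a replicate was not run.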
